A study of Mus musculus with 37 samples.

Results

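The levels of 9 genes of fatty acid oxidation were followed through cortical astrocytes of sham, PTE− and PTE+ mice: *Ppara*, *Bbox1*, *Cpt1a*, *Cpt2*, *Crat*, *Slc22a5*, *Acadl*, *Acadm* and *Hadha*. These 9 genes, of 21975 in the expression tables, were matched by Ensembl identifier, and all 9 had a row in both hemispheres. They were chosen by measured values of these libraries: *Ppara* for its contralateral difference between PTE+ and PTE− mice, *Bbox1* for its ipsilateral differences, and the other 7 as genes of the same pathway. The injured mice received a controlled cortical impact (CCI), a mechanical contusion of the exposed cortex, and were classed by electrographic seizures as epileptic (PTE+) or not (PTE−). Sham mice had the craniectomy and the recording electrodes without the impact. All groups carry the genotype label WT CD31, the methods describe CD1 males, and all tissue was taken 4 months after surgery. Their age at surgery was not given in the sources used here. Astrocytes were isolated from each cortex with magnetic beads against ACSA-2, an astrocyte surface antigen, so each library is 1 hemisphere of 1 mouse. The ipsilateral cortex gave 5 sham, 10 PTE− and 4 PTE+ libraries, the contralateral cortex 5, 9 and 4, and 17 of the mice gave both hemispheres.

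Fatty acids are burned mainly in mitochondria. A long-chain acyl group cannot cross the inner membrane as its coenzyme A ester and is first moved onto carnitine. *Slc22a5* encodes OCTN2, the plasma membrane carrier that takes carnitine into the cell, and *Bbox1* encodes gamma-butyrobetaine hydroxylase, the last enzyme of carnitine synthesis. *Cpt1a*, on the outer membrane, makes the acylcarnitine and is the step that malonyl-CoA inhibits. *Cpt2*, on the inner membrane, returns the acyl group to coenzyme A, and *Crat* exchanges short acyl groups, acetyl above all, between carnitine and coenzyme A. *Acadl* and *Acadm* encode the long- and medium-chain acyl-CoA dehydrogenases, which open each turn of the beta-oxidation spiral, and *Hadha* encodes the alpha subunit of the trifunctional protein, which carries long chains through the later steps. *Ppara* encodes a nuclear receptor that fatty acids activate and that, paired with a retinoid X receptor, raises transcription of many of these genes in liver. In the brain, fatty acid oxidation is largely the work of astrocytes.

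*Ppara* lies on chromosome 15 of GRCm38 (85734983 to 85802819, plus strand), *Bbox1* on chromosome 2 (110262697 to 110314560, minus strand) and *Cpt1a* on chromosome 19 (3322334 to 3385733, plus strand). The 250 bases before the RefSeq start of these 3 genes are shown because the levels of *Cpt1a* varied with those of *Ppara* from library to library and those of *Bbox1* did not. They cover chr15:85735526-85735775 on the plus strand, chr2:110305726-110305975 on the minus strand and chr19:3323051-3323300 on the plus strand, and run 5′ to 3′. All 3 windows lie inside the gene spans given above, that of *Bbox1* farthest from the 5′ end of its span. Sequence before the 5′ ends of the spans was not examined. Capitals mark GGGCGG, the GC box, and AGGTCA, the half-site of nuclear receptors, on either strand.
Ppara: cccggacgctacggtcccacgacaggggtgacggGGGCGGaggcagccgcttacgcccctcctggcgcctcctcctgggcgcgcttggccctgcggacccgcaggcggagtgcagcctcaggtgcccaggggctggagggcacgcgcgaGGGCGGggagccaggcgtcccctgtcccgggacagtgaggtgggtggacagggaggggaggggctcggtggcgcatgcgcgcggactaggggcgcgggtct
Bbox1: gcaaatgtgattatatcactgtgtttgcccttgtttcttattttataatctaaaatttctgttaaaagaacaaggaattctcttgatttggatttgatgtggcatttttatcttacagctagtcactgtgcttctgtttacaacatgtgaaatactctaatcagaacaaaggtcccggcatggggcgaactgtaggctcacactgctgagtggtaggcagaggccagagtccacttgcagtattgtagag
Cpt1a: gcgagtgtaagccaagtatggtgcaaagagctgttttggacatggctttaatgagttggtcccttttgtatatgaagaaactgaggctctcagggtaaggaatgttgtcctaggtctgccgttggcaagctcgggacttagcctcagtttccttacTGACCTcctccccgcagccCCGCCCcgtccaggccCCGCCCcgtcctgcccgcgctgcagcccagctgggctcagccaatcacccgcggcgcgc
The *Ppara* window held 2 GC boxes and was 76.4% G and C, the *Cpt1a* window 2 GC boxes and 1 half-site at 59.6%, and the *Bbox1* window neither motif at 39.6%. Of 32851 mouse promoter windows of this length (RefSeq, GRCm38.p6), 32.7% held a GC box and 14% a half-site. The DR1 element, a direct repeat of 2 half-sites spaced by 1 base, searched on both strands and overlapping the half-site by construction, was in 0.0335% of all windows and in none of the 8 members with an entry. *Crat* had no entry. Among the members not shown, *Acadm* held 1 half-site, with r = 0.29 to *Ppara* over 36 libraries after removal of group means. *Cpt2*, *Acadl*, *Slc22a5* and *Hadha* held no half-site, with r of 0.60, 0.60, 0.50 and 0.35. The part of these motifs in the levels was not tested.

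Expression was given in TPM, transcript abundances scaled for length that sum to 1000000 in every library, so levels can be set side by side between genes. The files hold no read counts, and the depth of single libraries is unknown. Between 15599 and 18534 genes were above 0 TPM in 36 of the 37 libraries. The ipsilateral library of PTE− mouse 9_14 stood apart with 10727 genes, and differences that rest on it are given with and without it. The 10 astrocyte markers summed to between 15154 and 21535 TPM in every library, so the labelled cell type was borne out by its markers. Most of that sum was *Aldoc*, with a mean of 10085 TPM. Markers of other cells were present at lower sums: 734 to 4921 TPM for 8 mural and fibroblast markers, 524.4 to 4481 TPM for 10 oligodendrocyte, 392.6 to 2902 TPM for 10 endothelial, 120.3 to 854.7 TPM for 10 microglia, 39.7 to 674.5 TPM for 8 neuron, 8.47 to 59.5 TPM for 5 oligodendrocyte precursor and 39.3 to 955.8 TPM for 5 ependymal markers. Single markers of other cells were not always lower. The mural marker *Vtn* (mean 1286 TPM) and the oligodendrocyte marker *Mbp* (1151 TPM) exceeded *Aqp4* (647 TPM), and lay below *Slc1a3* (2141 TPM) and *Gja1* (1968 TPM). In these bulk libraries a smaller share of cells expressing a gene and less RNA per cell cannot be told apart.

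RNA of all 9 genes was present in the astrocyte libraries of both hemispheres, which also hold RNA of other cells. *Acadl* was the highest with a mean of 222 TPM (SD 38.1, 37 libraries), followed by *Acadm* with 123.7 TPM (SD 15.5) and *Crat* with 101.8 TPM (SD 16.2). *Cpt1a* (67.4 TPM, SD 16.6), *Hadha* (56.0 TPM, SD 12.2) and *Cpt2* (52.5 TPM, SD 9.18) formed a middle tier, and *Slc22a5* (18.5 TPM, SD 4.70), *Ppara* (16.8 TPM, SD 4.93) and *Bbox1* (14.4 TPM, SD 6.31) were the lowest. Within single libraries the 3 tiers did not mix at their borders: *Crat* exceeded *Cpt1a* and *Cpt2* exceeded *Slc22a5* in 37 of 37 libraries. Inside the tiers the order was loose, with *Hadha* above *Cpt2* in 22 libraries and *Slc22a5* above *Ppara* in 23.

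**Figure D1:**
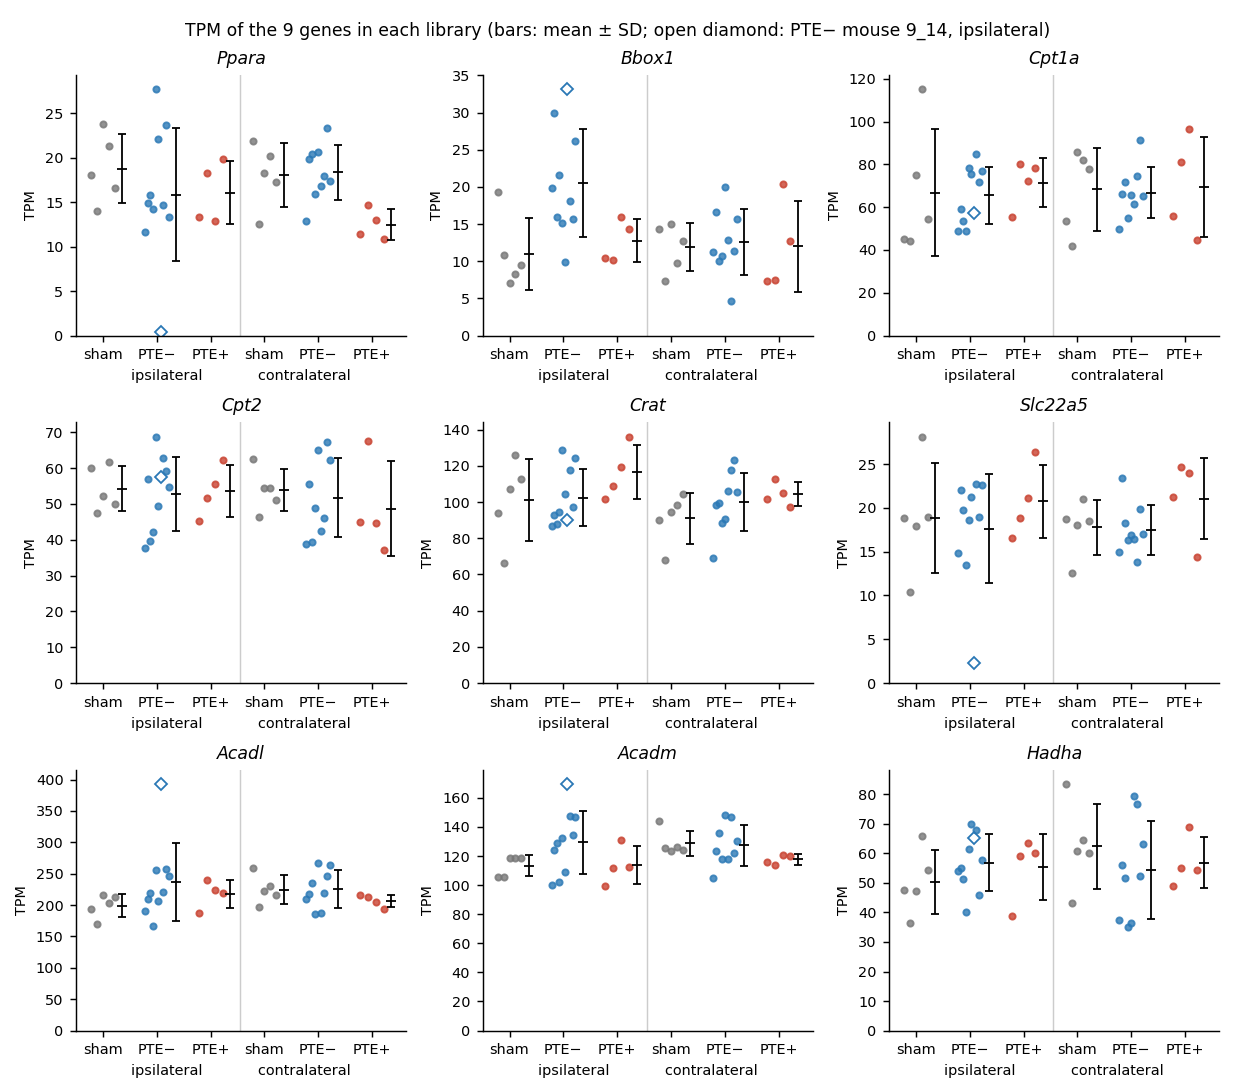
TPM of each of the 9 genes (vertical axes, from 0) in every library, by outcome and hemisphere, with 1 point per library and the mean ± SD of each group beside it. The open diamond is the ipsilateral library of PTE− mouse 9_14, which lies at 0.42 TPM of Ppara and 2.28 TPM of Slc22a5 and is the highest library for Bbox1, Acadl and Acadm.

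The genes differed in how widely they spread. Without the library of mouse 9_14, the coefficient of variation was 39.96% for *Bbox1*, 24.8% for *Cpt1a* and 23.95% for *Ppara*, and only 11.7% for *Acadl* and 11.1% for *Acadm*, against a median of 23.7% over the 10235 genes with a mean above 5 TPM. After removal of each group's mean, libraries high in one of the genes tended to be high in the others. The median Pearson r of the 36 gene pairs was 0.48 over 36 libraries without mouse 9_14 and 0.29 over all 37. The closest pair was *Cpt1a* and *Crat* (r = 0.76), then *Cpt1a* and *Slc22a5* (0.71) and the dehydrogenases *Acadl* and *Acadm* (0.69). *Ppara* itself had r between 0.57 and 0.61 with *Cpt1a*, *Acadl*, *Cpt2* and *Crat*. *Bbox1* was the exception, with r between −0.17 and 0.17 with all 8 other genes. These values describe libraries of one scaling, 2 per mouse for most mice, and carry no test. Among genes ranked by r with *Ppara* in the same 36 libraries, *Cpt1a* was at rank 266, *Acadl* at 291, *Cpt2* at 317 and *Crat* at 522. The means of mice whose names begin with 8 or 9 were not removed. Those beginning with 9 had more *Ppara*, *Cpt1a* and *Crat* on average in every group, except *Ppara* and *Crat* in contralateral PTE+ mice. The part of this difference in the r values was not tested. Without mouse 9_14, *Cpt2* and *Cpt1a* also had r of 0.73 and 0.63 with the summed astrocyte markers, and *Ppara* 0.43.

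*Ppara*, the receptor, was at similar levels in sham cortex of both sides and lower in the contralateral cortex of PTE+ mice. In ipsilateral sham libraries it measured 18.1, 14, 16.6, 23.8 and 21.3 TPM, and in the contralateral libraries of the same mice 21.9, 12.5, 17.2, 18.3 and 20.2 TPM. The sham hemispheres overlapped over most of their range, and their difference was 0.05 on the log2(TPM + 1) scale (95% interval −0.39 to 0.49, unpaired limma with Benjamini-Hochberg adjustment, adjusted p = 0.999). A within-mouse exact sign-flip test gave p = 0.625, with *Ppara* higher ipsilaterally in 3 of 5 sham mice.

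In the contralateral cortex of PTE+ mice, *Ppara* measured 11.4, 14.6, 13.02 and 10.8 TPM, a mean of 12.5 ± 1.72 (SD, n = 4). The 9 contralateral PTE− libraries ran from 12.9 to 23.4 TPM with a median of 17.95, and the mean was 18.4 ± 3.09 (SD, n = 9). Of the PTE+ libraries, 2 lay below every PTE− library and the other 2 only above its lowest, so the groups overlapped at their edge. The log2 fold change was −0.52 (SE 0.15), a 1.43-fold lower level. This is the contrast that chose *Ppara*, so it is given as a description. It was the only one of the 9 genes to pass the study's thresholds there (unadjusted p under 0.05 in limma and at least 1.2-fold, called DEGs below), as did 2.79% of all tested genes. The fold change stayed between −0.60 and −0.46 in every alternative tried, each PTE+ mouse left out in turn included. These refits reuse the libraries that chose *Ppara*, so neither they nor the passed thresholds are separate support. Within mice whose names begin with 8 it was −0.37 (2 PTE+ and 4 PTE− libraries), and within those that begin with 9 it was −0.64 (2 and 5); what the prefix marks is not stated. The summed endothelial markers had a median of 1815 TPM in the contralateral PTE+ libraries (908 to 2902) and 1150 TPM in the PTE− libraries (613.6 to 1611), with none at 0; their part in the *Ppara* difference was not tested.

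Ipsilaterally *Ppara* showed no such separation. The PTE+ libraries measured 13.3, 18.3, 12.8 and 19.9 TPM, and the 10 PTE− libraries had a median of 14.8 TPM and ran from 11.7 to 27.7 TPM apart from 0.42 TPM in mouse 9_14. All 4 PTE+ values lay inside the PTE− range. The log2 fold change of PTE+ against PTE− was 0.27 (SE 0.58) with mouse 9_14 and −0.09 without it, and that of all CCI mice against sham −0.41 (SE 0.45) with it and −0.15 without it. In each of the 3 PTE+ mice with both hemispheres *Ppara* was the lower contralaterally, by 0.20 to 0.46 on the log2 scale, whereas in PTE− mice it was lower contralaterally in 3 of 9. The hemisphere difference uses the contralateral libraries that chose *Ppara* and was not tested. Ordered by mean, the groups ran from contralateral PTE+ (12.5 TPM) through ipsilateral PTE− (15.9, or 17.6 without mouse 9_14), ipsilateral PTE+ (16.1), contralateral sham (18.1) and contralateral PTE− (18.4) to ipsilateral sham (18.8), and the last 5 lay closer together than 1 SD of any of them.

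The genes whose levels followed *Ppara* most closely, after removal of group means, were *Nmnat1*, *Klf3*, *Riok3*, *Golga1* and *Ints5*, with r of 0.94 to 0.95 over all 37 libraries. The library of mouse 9_14, where *Ppara* was near 0, carries those values: without it the closest 5 were *Inpp1* (r = 0.80), *Usp21* (0.78), *Repin1* (0.75), *Aars* (0.74) and *Ulk3* (0.71).

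**Figure D2:**
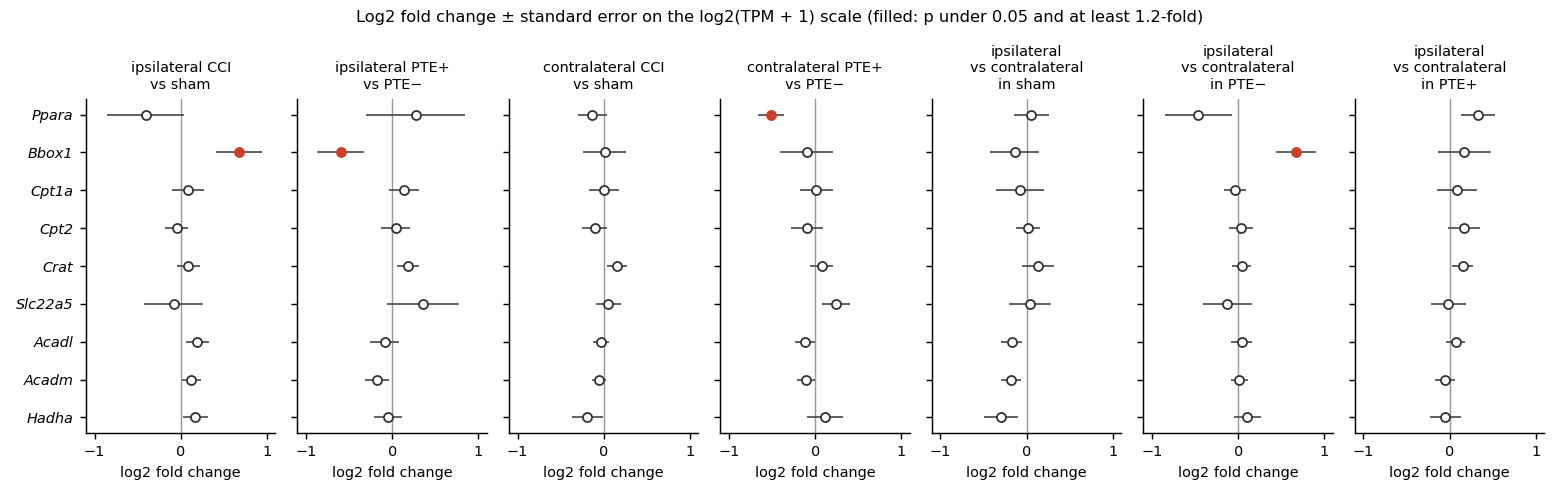
Log2 fold change of each of the 9 genes in the 7 comparisons, on the log2(TPM + 1) scale, with its standard error as a bar. Filled points met both DEG thresholds: Ppara in contralateral PTE+ against PTE− mice (−0.52), and Bbox1 in ipsilateral CCI against sham (0.68), ipsilateral PTE+ against PTE− (−0.60) and ipsilateral against contralateral cortex of PTE− mice (0.67); the other 7 genes are open in all panels.

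*Bbox1*, the last enzyme of carnitine synthesis, was highest in the ipsilateral cortex of PTE− mice. The 10 ipsilateral PTE− libraries ran from 9.94 to 33.1 TPM with a median of 18.98, a mean of 20.5 ± 7.23 (SD, n = 10), or 19.1 ± 6.08 (SD, n = 9) without mouse 9_14, the highest of them. Ipsilateral sham libraries measured 19.3, 10.8, 9.48, 7.07 and 8.25 TPM and ipsilateral PTE+ libraries 10.5, 10.2, 16 and 14.3 TPM. Sham mouse 8_15 lay in the middle of the PTE− range. The sham libraries at 9.48, 7.07 and 8.25 TPM lay below all PTE− libraries, and that at 10.8 TPM below all but 1. All 4 PTE+ libraries lay inside the lower part of the PTE− range.

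These contrasts chose *Bbox1* and are descriptions. CCI mice were 0.68 above sham on the log2 scale (SE 0.27), where 1.62% of all tested genes were DEGs, and PTE+ mice differed from PTE− mice by −0.60 (SE 0.27), where 0.573% were. The first no longer met the thresholds with array weights (0.47) or without sham mouse 9_10 (0.56) or 9_11 (0.61). The second no longer met them with array weights (−0.41), with the name prefix as a covariate (−0.59), or without PTE+ mouse 8_10 (−0.52), 9_17 (−0.51) or 9_19 (−0.66). Without the library of mouse 9_14 they were 0.61 and −0.52. Within name prefixes 8 and 9 the first was 0.34 and 0.92 and the second −0.96 (1 PTE+ library) and −0.44.

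On the contralateral side *Bbox1* did not separate the groups. Sham libraries averaged 11.9 ± 3.23 TPM (SD, n = 5), PTE− libraries 12.6 ± 4.40 TPM (SD, n = 9), of which mouse 9_15 was the lowest at 4.70 TPM, and PTE+ libraries 11.99 ± 6.14 TPM (SD, n = 4). CCI mice differed from sham by 0.01 (95% interval −0.52 to 0.54, limma, adjusted p = 0.998), where 4.05% of all tested genes were DEGs. PTE+ mice differed from PTE− mice by −0.10 (SE 0.31), and by −0.62 and 0.42 within name prefixes 8 and 9. Within PTE− mice the ipsilateral library was the higher in 7 of 9, most of all in mouse 9_15 with 18.1 against 4.70 TPM and mouse 8_9 with 21.6 against 10.7 TPM. The log2 difference was 0.67 (SE 0.23), or 0.59 without mouse 9_14 or with the mouse as a block, and it rests on the ipsilateral PTE− libraries that chose the gene; 1.99% of all tested genes were DEGs between these hemispheres. In sham mice *Bbox1* was higher ipsilaterally in 2 of 5, and in PTE+ mice in 2 of 3.

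Markers of ependymal cells, the ciliated lining of the ventricles, moved with *Bbox1*. The 5 listed markers (*Foxj1*, *Ccdc153*, *Tmem212*, *Rsph1* and *Dynlrb2*) had a median sum of 471.9 TPM in ipsilateral PTE− libraries (89.4 to 797.2), 243.8 TPM in sham (39.3 to 415.9) and 324.1 TPM in PTE+ (171.4 to 352.2). The contralateral medians were 265.2 TPM in sham (161.2 to 603.6), 225.9 TPM in PTE− (111.5 to 955.8) and 275.2 TPM in PTE+ (47.6 to 680.7), and no marker was at 0 throughout a group. After ipsilateral CCI all 5 had positive fold changes (0.591 to 1.079) and 2 were DEGs, against 1.62% of all tested genes. Without the library of mouse 9_14, 5 were DEGs, against 3.83% of all tested genes. In ipsilateral PTE+ against PTE− mice all 5 were negative (−0.76 to −0.14) and 0 were DEGs, against 0.573% of all tested genes. Without that library 2 were DEGs, against 1.89% of all tested genes. In each of the 9 PTE− mice with both hemispheres, the side with more *Bbox1* was also the side with more ependymal marker RNA, as it was in 3 of 5 sham and 2 of 3 PTE+ mice. After removal of group means, the Pearson r of *Bbox1* with the marker sum was 0.52 over 37 libraries and 0.71 without mouse 9_14, against −0.34 to 0.06 for the other 8 genes in the same 36 libraries.

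The library of mouse 9_14 went against this: it had the highest *Bbox1* value, 33.1 TPM, and the lowest ependymal sum of its group, 89.4 TPM. The part of the ependymal markers in the *Bbox1* differences was not tested. Among the 5 genes closest to *Bbox1* over all 37 libraries were *Dnali1* (r = 0.74), *Ulk4*, *Elmod1* and *Gm11992* (0.72 to 0.73). Without mouse 9_14 they were *Tekt1* (0.83), *Fbln7*, *1700088E04Rik*, *Calml4* and *Nmb* (0.78 to 0.82). *Dnali1* and *Tekt1* encode parts of the ciliary axoneme.

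**Figure D3:**
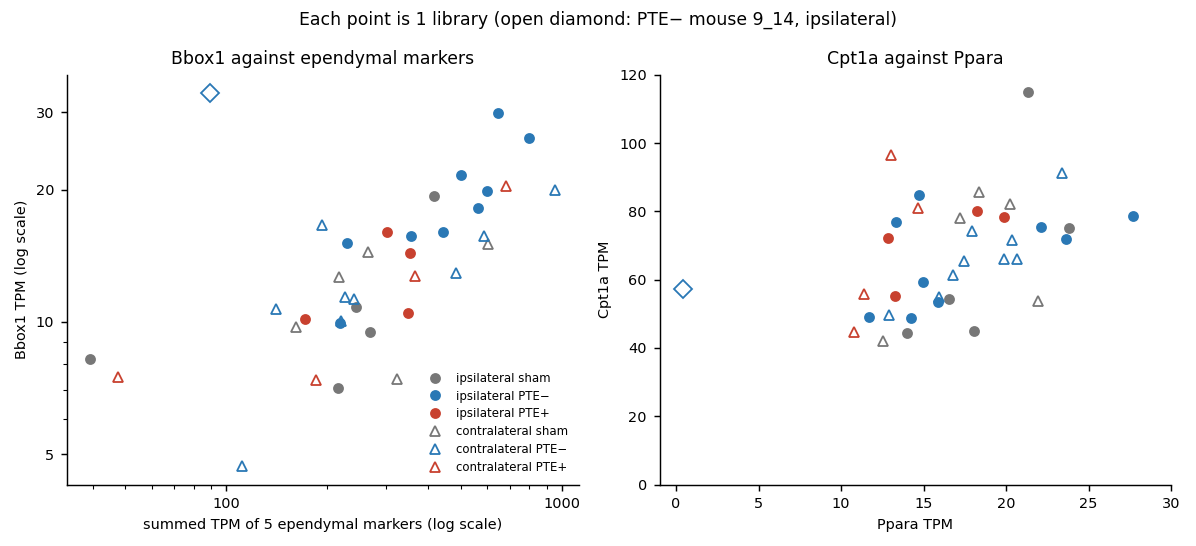
Left, Bbox1 TPM against the summed TPM of 5 ependymal markers, both on log axes; right, Cpt1a TPM against Ppara TPM on linear axes, with 1 point per library coloured by outcome and filled for ipsilateral. Bbox1 and the ependymal sum rise together (r = 0.71 after removal of group means, 36 libraries), with the library of PTE− mouse 9_14 (open diamond) far from the rest at 33.1 TPM of Bbox1 and 89.4 TPM of markers.

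*Slc22a5* and the carnitine acyltransferases did not follow *Ppara* or *Bbox1* across the groups, and neither they nor *Acadl*, *Acadm* and *Hadha* were DEGs in any of the 7 comparisons. *Slc22a5*, the carnitine carrier, averaged between 17.45 and 21.1 TPM in the 6 groups, the ipsilateral PTE− mean being 17.6 TPM with mouse 9_14 and 19.3 TPM without it. Its ipsilateral PTE+ against PTE− difference was 0.36 with that library and 0.095 without it. Contralateral PTE+ libraries measured 21.2, 24.6, 23.95 and 14.4 TPM and PTE− libraries 13.8 to 23.5 TPM with a median of 16.9, a log2 fold change of 0.24 (SE 0.16). In PTE+ mice 2 values were above and none below the whole PTE− range. *Slc22a5* shares sequence with its neighbors *Slc22a4* and *Slc22a21*, so reads common to them were divided by the authors' counting.

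*Cpt1a*, the malonyl-CoA-sensitive step, averaged between 65.5 and 71.5 TPM in all 6 groups, and its spread lay within the groups. Part of that spread went with the name prefix, prefix 9 having the higher mean in every group. Ipsilaterally the means for prefixes 9 and 8 were 81.5 and 44.7 TPM in sham, 74.1 and 52.6 in PTE−, and 76.9 and 55.3 (1 library) in PTE+. Contralaterally they were 81.9 and 47.9 TPM in sham, 71.7 and 60.5 in PTE−, and 70.5 and 68.5 in PTE+. Ipsilateral sham mice measured 45.1, 44.3, 54.3, 75.2 and 115 TPM and contralateral PTE+ mice 55.9, 81.1, 96.4 and 44.6 TPM, each spanning most of the range of all libraries. *Cpt2* averaged 48.6 to 54.3 TPM and *Crat* 91.05 to 116.4 TPM. The highest *Crat* mean was in ipsilateral PTE+ mice with 102, 108.7, 119.3 and 135.9 TPM, against 86.6 to 128.9 TPM (median 95.7) in the PTE− group, a difference of 0.19 (SE 0.13) with 1 PTE+ library above the PTE− range. For contralateral CCI against sham, the log2 differences were 0.00 for *Cpt1a* (95% interval −0.36 to 0.37), −0.11 for *Cpt2* (−0.41 to 0.20), 0.15 for *Crat* (−0.09 to 0.40) and 0.05 for *Slc22a5* (−0.25 to 0.36). The exact permutation p-values were 0.99, 0.48, 0.188 and 0.708 (two-sided, 13 and 5 libraries), so changes up to those bounds could go undetected. Within name prefixes 8 and 9 *Cpt1a* differed by 0.38 and −0.24 and *Slc22a5* by 0.32 and −0.14, in opposite directions, and *Cpt2* by −0.15 and −0.07 and *Crat* by 0.26 and 0.10.

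*Acadl* and *Acadm*, the dehydrogenases, had the lowest coefficients of variation of the 9 genes without the library of mouse 9_14, as given above. Group means of *Acadl* lay between 199 and 236.6 TPM and those of *Acadm* between 113.4 and 129.5 TPM. The highest values of both were in the ipsilateral library of mouse 9_14, with 392.4 and 169.3 TPM, and without it the ipsilateral PTE− means were 219.3 ± 30.1 and 125.1 ± 17.7 TPM (SD, n = 9). *Hadha* averaged 50.3 TPM in ipsilateral sham and 62.4 TPM in contralateral sham, with all other groups between. For contralateral CCI against sham the log2 differences were −0.03 (*Acadl*, 95% interval −0.23 to 0.16), −0.05 (*Acadm*, −0.23 to 0.12) and −0.19 (*Hadha*, −0.57 to 0.19), with exact permutation p of 0.694, 0.459 and 0.333. Within name prefixes 8 and 9 they were −0.09 and 0.01, −0.18 and 0.05, and −0.36 and −0.04.

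These 3 genes had lower ipsilateral than contralateral values in 4 or 5 of the 5 sham mice. *Acadm* measured 105.5, 105.8, 118.4, 118.6 and 118.5 TPM ipsilaterally and 144.3, 125.5, 123.9, 123.8 and 126.3 TPM contralaterally in the same mice. Every ipsilateral library lay below every contralateral one, which held for 0.123% of the tested genes, and a lower ipsilateral value in every sham mouse was found for 7.08%. The log2 difference was −0.18 (SE 0.12, 95% interval −0.43 to 0.07, fit without pairing), under 1.2-fold. That unpaired limma fit gave an adjusted p of 0.999. The within-mouse differences had an SD of 0.17. The exact sign-flip test within mice gave p = 0.0625, the smallest that 5 pairs allow. *Acadl* was also lower ipsilaterally in all 5 sham mice, by −0.17 (SE 0.13, exact sign-flip p = 0.0625). *Hadha* was lower in 4 of 5, by −0.30 (SE 0.20, exact sign-flip p = 0.125), and met both thresholds with the mouse as a block (unadjusted limma p = 0.0471), as did 6.91% of all tested genes under that block. The median of all tested genes was itself −0.09 here and 1.19% were DEGs without the block. With each library centred on its median the 3 differences were −0.06, −0.05 and −0.18, those of *Ppara* and *Crat* being 0.17 and 0.25. Sham mouse 8_15 had the highest contralateral value of all 3 genes, and without it they were −0.12, −0.11 and −0.18.

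In PTE− mice the hemispheres did not part in this way. *Acadm* was higher ipsilaterally in 4 of 9 mice, *Acadl* in 3 and *Hadha* in 3, with mean within-mouse differences of −0.03, −0.04 and 0.08. The hemisphere difference of PTE− mice less that of sham mice was 0.38 for *Hadha*, 0.15 for *Acadm* and 0.13 for *Acadl* (exact permutation p = 0.0564, 0.0814 and 0.0804; 0.19 each after adjustment over 7 genes). In the 3 PTE+ mice these genes were higher ipsilaterally in 1, 1 and 2 mice for *Hadha*, *Acadm* and *Acadl*.

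**Figure D4:**
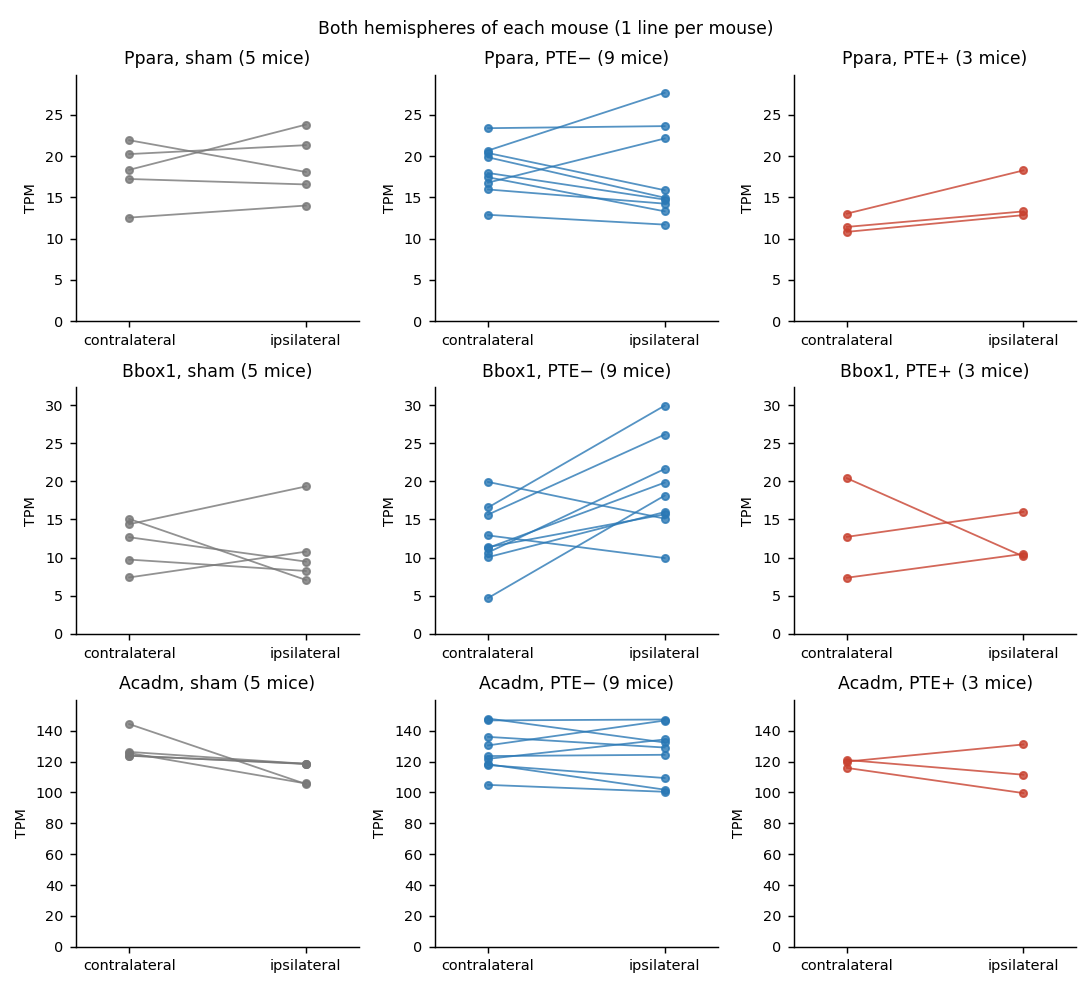
TPM of Ppara, Bbox1 and Acadm in the contralateral and ipsilateral library of each mouse, with 1 line per mouse and vertical axes from 0. Acadm falls toward the ipsilateral side in 5 of 5 sham mice, Bbox1 is higher ipsilaterally in 7 of 9 PTE− mice, and Ppara is higher ipsilaterally in 3 of 3 PTE+ mice.

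The rest of the pathway was read from 90 further genes, of which 89 had a row and 71 a mean above 5 TPM; *Tmlhe*, the first enzyme of carnitine synthesis, was not analysed here. Many exceeded the 9 genes. The acyl-CoA synthetase *Acsbg1* averaged 1429.6 TPM, the fatty acid transporter *Slc27a1* 1231 TPM and the fatty acid binding protein *Fabp7* 1001 TPM. Mitochondrial *Hadhb*, *Acaa2* and *Etfb* averaged 488, 469 and 465 TPM, peroxisomal *Scp2*, *Acaa1a* and *Hsd17b4* 552, 271 and 130.5 TPM, and the ketone enzymes *Oxct1* and *Bdh1* 273 and 131.6 TPM. In the other lists the highest were *Ncor1*, *Rxrb* and *Ncoa1* (89.4, 52.1 and 39.7 TPM), *Crot*, *Aldh9a1* and *Slc25a20* (125.1, 103.1 and 70.7 TPM), *Prkag1*, *Mlycd* and *Prkab1* (102.9, 66.3 and 21.7 TPM), and *Ucp2*, *Angptl4* and *Acot1* (101, 93.4 and 78.1 TPM). The other receptors of the family were low, *Ppard* at 1.82 TPM and *Pparg* at 0.81 TPM, so *Ppara* was the main PPAR transcript of these libraries.

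After ipsilateral CCI, 3 of 72 tested pathway genes were DEGs, against 1.62% of all tested genes, all higher than in sham. All 3 belong to the list of PPARA targets, of which 7 genes were tested. Other genes that PPARA raises in liver stand among the 9 genes, where 6 fold changes were positive and 3 negative. *Acot1*, a cytosolic acyl-CoA thioesterase, measured 32.9 to 86.8 TPM in sham (median 57.4), 62.3 to 118.3 TPM in PTE− apart from 157.3 TPM in mouse 9_14 (median 78) and 64.0 to 97.8 TPM in PTE+ mice. The CCI and sham means were 87.8 ± 25 (SD, n = 14) and 58.4 ± 20.1 TPM (SD, n = 5), a log2 fold change of 0.61 (SE 0.20), and 6 of 14 CCI libraries exceeded every sham library, mouse 9_14 among them. *Acot2*, its mitochondrial paralog, was 0.56 higher (SE 0.23), and *Angptl4*, a secreted inhibitor of lipoprotein lipase, 0.40 higher (SE 0.18). Without mouse 9_14 the 3 differences were 0.54, 0.51 and 0.36. *Acot1* and *Acot2* are near-identical, so reads shared between them are uncertain.

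The other 4 tested targets (*Pdk4*, *Plin2*, *Ucp2* and *Ucp3*) were positive without passing, and the median of the 7 was 0.26 against −0.01 over all genes. Across all 72 genes the median was 0.04, and 45 were positive. With adjustment over all genes none of the 72 passed (limma, smallest adjusted p = 0.9997), and 3 had an unadjusted p under 0.05. *Acot2* no longer passed without sham mouse 9_9 (0.39) or 9_10 (0.52), and *Angptl4* not without sham mouse 8_16 (0.25) or 9_10 (0.30), with array weights (0.30) or in a fit of all 3 groups (0.37). The summed oligodendrocyte markers had a median of 3097 TPM in ipsilateral sham libraries (524.4 to 4481), 1351 TPM in PTE− (774 to 2275) and 1442 TPM in PTE+ libraries (1192 to 2342), with none at 0, and their part in these differences was not tested. Within name prefixes 8 and 9, *Acot1* differed by 0.48 and 0.67, *Acot2* by 0.14 and 0.83 and *Angptl4* by 0.45 and 0.36.

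Between ipsilateral PTE+ and PTE− mice, 1 of 73 tested pathway genes was a DEG, against 0.573% of all tested genes. The median log2 fold change of the 73 genes was 0.09, against 0.12 over all genes tested (smallest adjusted p = 0.977, limma). None of the 7 tested genes of the PPARA target list passed.

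In the contralateral cortex, where *Ppara* was lower in PTE+ mice, 3 of 73 tested pathway genes were DEGs between PTE+ and PTE− mice, against 2.79% of all tested genes, so that their share lay near the background. *Pex11a*, a peroxisome division factor, measured 38.3, 43.5, 48.4 and 53.3 TPM in PTE+ mice and 47.7 to 72.1 TPM (median 56.3) in the PTE− group, which is a difference of −0.36 (SE 0.14). *Acadsb*, the short/branched-chain acyl-CoA dehydrogenase, measured 40.4, 42.9, 46.8 and 57.7 TPM against 47.4 to 82.8 TPM (median 59.0), a log2 fold change of −0.44 (SE 0.17). In both genes all 4 PTE+ libraries lay below the PTE− median.

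*Acot2* was the other way, with 14.4, 17.9, 20.5 and 20.8 TPM in PTE+ and 8.98 to 21.1 TPM (median 11.9) in the PTE− group, 0.45 higher on the log2 scale (SE 0.20). The genes of the PPARA target list did not share a direction: of 7 tested, 4 had negative and 3 positive fold changes, with a median of −0.10. The smallest adjusted p was 0.999 (limma). *Acot2* lost its call with quantile normalization (0.36), median centring (0.38), a fit of all 3 groups (0.45) or the prefix covariate (0.45), and without PTE+ mouse 8_10 (0.45), 8_17 (0.38) or 9_17 (0.39), *Acadsb* without PTE+ mouse 8_10 (−0.40) or 8_17 (−0.37), and *Pex11a* without PTE+ mouse 9_18 (−0.28). Within name prefixes 8 and 9, *Pex11a* differed by −0.06 and −0.64 and *Acadsb* by −0.29 and −0.52.

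For contralateral CCI against sham, 1 of 74 tested pathway genes was a DEG, a smaller share than the 4.05% of all tested genes. It was *Ncor1*, a corepressor of nuclear receptors, at 89.2 ± 19.3 TPM (SD, n = 13) against 114.7 ± 23.8 TPM (SD, n = 5), a log2 fold change of −0.36 (SE 0.14; limma, smallest adjusted p of the list 0.978). It no longer passed with median centring (−0.26) or without sham mouse 8_15 (−0.26), and within name prefixes 8 and 9 it was −0.59 and −0.21. Between sham hemispheres *Ncor1* (−0.38), *Acadsb* (−0.49) and *Acad9* (−0.41), a mitochondrial dehydrogenase and complex I assembly factor, were DEGs, lower ipsilaterally, of 74 tested, against 1.19% of all tested genes. None held in all alternatives: *Ncor1* lost its call without mouse 8_15 (−0.26), 8_16 (−0.35), 9_10 (−0.39) or 9_11 (−0.39), *Acadsb* without 8_15 (−0.35), 9_9 (−0.47) or 9_10 (−0.50), and *Acad9* without 8_15 (−0.34), 8_16 (−0.38) or 9_10 (−0.33), and *Ncor1* and *Acad9* also with median centring (−0.26 and −0.29). The same contralateral sham libraries enter both comparisons.

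*Slc22a4*, which encodes the ergothioneine and carnitine transporter OCTN1 beside *Slc22a5*, was higher ipsilaterally in injured mice of both outcomes. In PTE+ mice the ipsilateral libraries measured 31.9, 32.4, 45.9 and 48.95 TPM and the contralateral ones 21.8, 25.8, 26.7 and 29.2 TPM. The log2 difference was 0.58 (SE 0.18), where 1.62% of all tested genes were DEGs. The 3 PTE+ mice with both hemispheres were all higher ipsilaterally, by a mean of 0.57, and 3 pairs cannot give an exact sign-flip p below 0.25. In PTE− mice it was 0.38 (SE 0.16), or 0.27 without the ipsilateral library of mouse 9_14 at 80.1 TPM, with the ipsilateral library higher in 7 of 9 mice, where 1.99% of all tested genes were DEGs, and in sham mice in 3 of 5 with a mean of 0.05 (exact sign-flip p = 0.75). *Plin2*, the lipid droplet coat protein, was also higher ipsilaterally in PTE− mice (0.30, SE 0.13), in 6 of 9 mice, and fell under the 1.2-fold threshold with the mouse as a block (0.25). *Plin2* also lost its call without mouse 9_13 (0.25), 9_14 (0.25), 9_15 (0.24) or 9_20 (0.30), and *Slc22a4* without mouse 9_15 (0.34). Of 71 genes tested in PTE− mice these 2 were DEGs, of 73 in PTE+ mice only *Slc22a4*, and no adjusted p was below 0.97 (limma).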

How the data were processed

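Cortical astrocyte RNA from 37 libraries of 20 mice was analysed. The authors amplified it with SMART-Seq V4, trimmed reads with Trim Galore 0.6.4, aligned them with Bowtie2 2.4.1 and quantified genes with RSEM 1.2.28 on mm10, and the deposited values are TPM per gene and library, 1 table per hemisphere; DESeq2 1.36.0, named in the submitters' processing notes, was run by the authors on counts not used here. TPM carry no depth, so no counting interval is given, and RSEM divides reads shared by paralogs. Libraries were grouped by their labels.

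Differences were fitted with limma 3.58.1 (R 4.3.3, trend) on log2(TPM + 1) over genes whose mean exceeded 5 TPM in 1 compared group or more. DEGs differed by 1.2-fold or more with p below 0.05 before adjustment, thresholds taken from the study's methods, and Benjamini-Hochberg adjusted p-values cover all tested genes. The log2(TPM + 1) scale understates the change of low genes. Single values were also tested by exact permutation of libraries, or of signs within mice (scipy 1.17.1), two-sided. The fit was tested on simulated data. PTE+ and PTE− mice are separate animals, so p-values between outcomes measure spread between mice. Hemispheres of a mouse come from the same animal and pair by design: over 10235 genes the median correlation of their deviations from group means was 0.41 (0.04 to 0.69, above 0.1 in 16 of 17 mice). The fit with the mouse as a block was run as an alternative, beside other pseudocounts, filters, scalings and weights, the name prefix as a covariate and each mouse left out. Unless the block is named, SEs, intervals and adjusted p-values between hemispheres come from the unpaired fit.

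The 9 genes, the pathway lists and the marker lists were chosen with earlier results of these data known. For that reason no p-value is given for the 9 genes in the ipsilateral comparisons or between contralateral PTE+ and PTE− mice. Named pathway genes are the DEGs of each comparison and the 3 highest by mean TPM of each list; *Ppard* and *Pparg*, and the tested PPARA targets that were not DEGs, were added after their values were seen. Since their limma p selected the DEGs, no further p-value is given for them in the same comparison. Genes like *Ppara* or *Bbox1* are the 5 with the highest correlation. A few genes that these rules select are counted but not reported here. The 1 library left out in places, of mouse 9_14, was chosen after seeing the data.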

Additional observations from a re-analysis of the deposited data

Results flagged for a closer look

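Among the 54 sets of values formed by 9 genes and 6 groups, 6 held a library whose distance from its nearest neighbour was large for the range of its group (Dixon's 95% limit); chance alone marks about 1 in 20 sets. The ipsilateral library of PTE− mouse 9_14 gave 3 of them: 0.42 TPM of *Ppara*, where the next library had 11.69 TPM, 2.28 TPM of *Slc22a5*, where the next had 13.44 TPM, and 392.36 TPM of *Acadl*, where the next had 256.91 TPM. It was also the library with 10727 genes above 0 TPM. The other 3 came from different mice. *Bbox1* was at 4.7 TPM in the contralateral library of PTE− mouse 9_15, next to 10.06 TPM. *Acadm* was at 144.29 TPM in the contralateral library of sham mouse 8_15, next to 126.27 TPM. *Hadha* was at 38.66 TPM in the ipsilateral library of PTE+ mouse 8_10, next to 59.11 TPM.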

How the results depend on the processing

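Of 1122 recomputed log2 fold changes over 77 results, 1034 kept their direction and their side of the thresholds or, for values given without a test, moved by less than the spread between libraries, 44 tested differences lost a call, 2 gained one (*Hadha* between sham hemispheres with array weights, −0.36, or the mouse as a block, −0.30) and 42 changed sign. Over the 40 differences of the 9 genes given without a test, counted above by their spread alone, *Bbox1* lost its DEG status in 8 of 560 recomputations (3 in ipsilateral CCI against sham and 5 in ipsilateral PTE+ against PTE−), 3 gained it (*Cpt1a* in ipsilateral CCI against sham and *Bbox1* between PTE+ hemispheres with array weights, 0.34 and 0.57, and *Slc22a5* in contralateral PTE+ against PTE− without PTE+ mouse 9_18, 0.41), and 39 changed sign, none of a DEG; *Ppara* in ipsilateral PTE+ against PTE− ran from −0.19 to 0.40 and *Bbox1* in the contralateral one from −0.38 to 0.078. The cause of these changes was not tested. The numbers of pathway DEGs were 3, 1, 1, 3, 3, 2 and 1 in ipsilateral CCI against sham, ipsilateral PTE+ against PTE−, the same 2 comparisons contralaterally, and the hemispheres of sham, PTE− and PTE+ mice. With array weights they were 6, 4, 3, 8, 9, 2 and 13. The shares of all tested genes were then 8.08%, 4.21%, 5.76%, 7.94%, 8.58%, 3.49% and 12.6%, in the same order. In the main fit they were 1.62%, 0.573%, 4.05%, 2.79%, 1.19%, 1.99% and 1.62%. Ipsilateral PTE+ against PTE− gave 0 with a pseudocount of 0.1, without the filter on TPM, without any 1 PTE+ mouse or without mouse 9_14. Between 0.22% and 1.89% of all tested genes were DEGs in those fits. Contralateral CCI against sham gave 3 with quantile normalization, 2 with median centring and 4 in a fit of all 3 groups. The shares of all tested genes were 3.40%, 3.88% and 3.35%. Sham hemispheres gave 1 with median centring (0.96% of all tested genes) and PTE+ hemispheres 2 with the mouse as a block (3.86%). The block changed no call of a named gene other than *Hadha* and *Plin2*. With 1 mouse left out, the counts are followed by that mouse and the share of all tested genes. They were 2 (sham 8_16, 1.32%) to 6 (sham 9_11, 4.00%) for ipsilateral CCI against sham. For the contralateral comparison they were 0 (sham 8_15, 3.35%) to 3 (sham 8_16, 6.83%). Between sham hemispheres they were 0 (8_15, 0.347%) to 4 (9_11, 2.76%), and between PTE− hemispheres 0 (9_15, 1.43%) to 3 (9_12, 2.17%).

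None of the 42 sign changes concerned a called difference. In contralateral CCI against sham, array weights gave −0.16 for *Bbox1* and −0.10 for *Cpt1a*, the fit of all 3 groups −0.0089 for *Bbox1*, and median centring 0.066 for *Acadl* and 0.048 for *Acadm*. With 1 mouse left out, *Bbox1* ran from −0.13 to 0.10, *Cpt1a* from −0.16 to 0.10, *Slc22a5* from −0.059 to 0.11 and *Acadl* from −0.080 to 0.018. Between sham hemispheres, array weights gave −0.068 for *Ppara*, −0.045 for *Cpt2* and −0.048 for *Slc22a5*, and median centring 0.040 for *Cpt1a*. With 1 mouse left out, *Ppara* ran from −0.025 to 0.13, *Cpt1a* from −0.22 to 0.029, *Cpt2* from −0.029 to 0.030 and *Slc22a5* from −0.054 to 0.11. Between PTE− hemispheres, *Slc22a5* was 0.056 with quantile normalization, 0.14 with array weights, and 0.14 with the mouse as a block, with or without mouse 9_14. *Acadl* was −0.019 with array weights and −0.044 with the block, and *Acadm* −0.015 and −0.033. With 1 mouse left out, *Cpt1a* ran from −0.072 to 0.010, *Cpt2* from −0.015 to 0.061, *Crat* from −0.013 to 0.086, *Slc22a5* from −0.22 to 0.14, *Acadl* from −0.044 to 0.060 and *Acadm* from −0.033 to 0.036.

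The comparisons of PTE+ with PTE− mice rest on 4 PTE+ libraries. As reported, no gene of the 7 comparisons passed an adjusted p under 0.05 (limma; 63 to 472 genes had an unadjusted p under 0.05); under other settings up to 2 genes did in 4 of them (ipsilateral CCI against sham, ipsilateral PTE+ against PTE−, and PTE− and PTE+ hemispheres). The share of all genes called moved between settings, from 0.22% to 12.6% over the comparisons.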

Other observations

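The subunits of the trifunctional protein were listed at unequal levels. *Hadhb*, which encodes the beta subunit, averaged 488 TPM against 56.0 TPM for *Hadha*, and the ratio of their TPM ran from 4.98 to 14.5 over the 37 libraries with a median of 9.17.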
